A study of Mus musculus with 2 samples.

Results

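Newborn migrating excitatory neurons were picked out of single-cell RNA sequencing of mouse cerebral cortex at embryonic day (E) 16.5. The members were selected on the counts of 11 genes. A cell was a member when it held at least 2 unique molecular identifiers (UMIs, each a captured RNA molecule) of *Neurod1*, at least 1 UMI of *Nhlh1*, *Unc5d* or *Sema3c*, and no UMI of *Eomes*, *Gad1*, *Gad2*, *Dlx2*, *Mki67*, *Top2a* or *Pax6*. Of 16213 cells with 1500 to 60000 UMIs and under 10% mitochondrial UMIs, 473 were members. Replicate 1 gave 218 of 5966 cells, or 3.65% (exact 95% binomial interval 3.19 to 4.16%), and replicate 2 gave 255 of 10247, or 2.49% (2.20 to 2.81%). The mean share was 3.07% ± 0.824 (SD, n = 2 libraries). The intervals cover counting error only.

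Per the labels both libraries came from wild-type (WT) embryos of the EomesDot line, control animals of an *Eomes-Cre* line, with no treatment and no mutant group. The text of the study names its E16.5 single-cell embryos as C57BL/6J and does not mention that line. Cortices were dissociated with papain and loaded as whole suspensions, without a sort. The labels do not say whether a library is 1 embryo or a pool, so a p-value below measures only the spread between these libraries, which may be technical. In the text, paired values always belong to replicates 1 and 2 in that order.

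Cortical excitatory neurons arise from radial glial cells (RGCs), most of them by way of intermediate progenitor cells (IPCs) that express the T-box factor *Eomes*. After its last division a newborn neuron passes from a multipolar to a bipolar shape and then climbs along radial glial fibres to the cortical plate. *Neurod1* is a basic helix-loop-helix (bHLH) factor switched on as IPCs become neurons, *Nhlh1* is a further bHLH factor of that step, *Unc5d* is a netrin and FLRT receptor known from multipolar cells, *Sema3c* is a secreted semaphorin, and *Rnd2* is an atypical small GTPase needed for radial migration.

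The neighbours in the lineage were taken by gates of the same kind. IPCs held at least 2 *Eomes* UMIs and no *Gad1*, *Gad2*, *Dlx2*, *Mki67* or *Top2a* (258 and 350 cells). Later excitatory neurons held at least 2 *Neurod6* UMIs and none of the 4 newborn genes or of the 7 genes that exclude a newborn cell (438 and 847 cells). They were not chosen by layer. Another 938 and 1654 cells without *Neurod1* or those 7 genes held *Nhlh1*, *Unc5d* or *Sema3c* and so were outside this gate. Of these, 91.4% and 91.7% held *Unc5d* and 87.3% and 85.7% *Neurod6*. A comparison with later neurons thus covers only excitatory cells without a UMI of these genes. RGCs numbered 165 and 235 cells and GABAergic cells 1356 and 1966. UMIs were summed over the cells of a gate in a library, and a level is given as counts per 1000000 UMIs (CPM) of that sum. Newborn cells had a median of 8047 and 6375 UMIs per cell, IPCs 8034 and 7073, and later neurons 6359.5 and 5821. After every cell was thinned to 1500 UMIs the newborn cells had a median of 960 and 965 genes detected. No barcode was a newborn cell in both libraries, which share 21 passing barcodes in all.

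The 4 positive genes of the gate are described without a test, since they chose the cells. *Neurod1* was at 374 and 415 CPM in newborn cells and 170.3 and 151 CPM in IPCs. *Unc5d* was at 2902 and 2860.4 CPM and *Sema3c* at 402 and 316 CPM. *Nhlh1* was sparse, at 9.43 and 8.50 CPM against 19.2 and 12.8 CPM in IPCs. Membership therefore rested on *Unc5d* and *Sema3c*: 67.0% and 65.5% of the members held both without *Nhlh1*, 19.7% and 23.9% held *Unc5d* alone, 5.50% and 5.10% *Sema3c* alone, and 17 and 14 cells held an *Nhlh1* UMI. *Unc5d* is the least selective of these genes, with a UMI in 94.5% and 94.1% of newborn cells, in 27.0% and 25.3% of GABAergic cells and in 23.6% and 20.5% of cells with microglial or endothelial markers. The latter should lack it, at median depths of 8696 and 6860.5 UMIs. Scrublet, which scores likely doublets (2 cells under 1 barcode), put 25.8% and 24.3% of them among its highest scores, against 5.05% and 7.06% of newborn cells. The part of doublets in their shares was not tested, here or where they serve as background below. Of 438 and 570 cells that met the positive part of the rule, 150 and 203 held an *Eomes* UMI and 106 and 139 a *Pax6* UMI and were left out.

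Just outside the threshold, 250 and 357 cells met the rest of the rule with a single *Neurod1* UMI, and just inside it 96 and 143 cells held exactly 2. A *Rnd2* UMI was found in 42.0% and 35.0% of the former and in 54.2% and 40.6% of the latter, at median depths of 7469.5 and 5901 against 7781 and 6275 UMIs. A *Bcl11b* UMI was found in 56.4% and 51.0% against 68.8% and 58.7%. At 4 or more *Neurod1* UMIs (61 and 55 cells) the *Bcl11b* share was 67.2% and 50.9%.

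**Figure D1:**
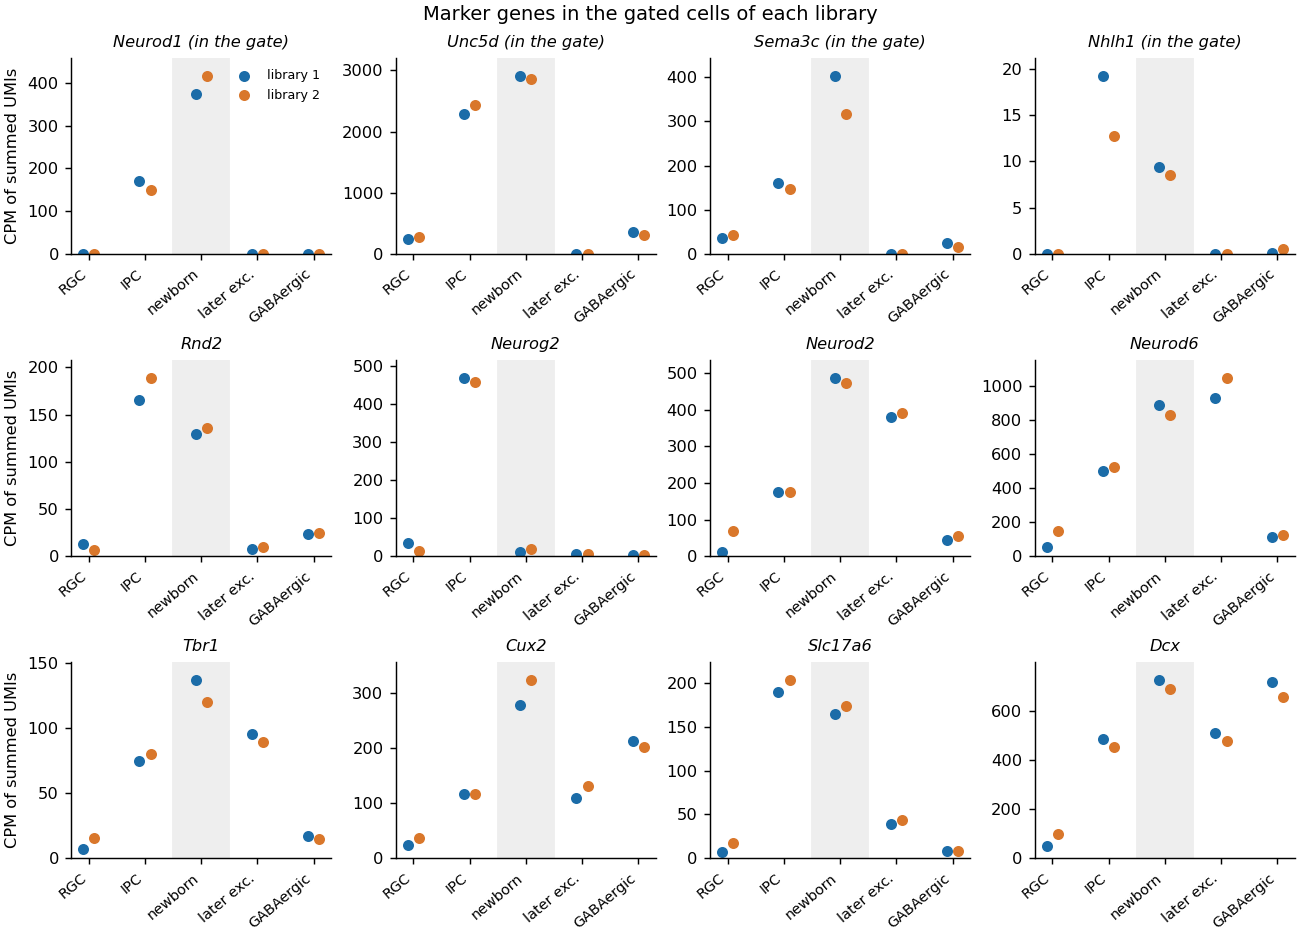
Levels of 12 marker genes (y axis, CPM of summed UMIs, starting at 0) in the RGC, IPC, newborn, later excitatory and GABAergic gates, with 1 point per library and the newborn gate shaded. *Neurod1*, *Unc5d*, *Sema3c* and *Nhlh1* belong to the gates, so their pattern is not a finding. *Rnd2* lies at 129 and 135 CPM in newborn cells and below 10 CPM in later excitatory cells, and *Neurog2* at 467 and 457 CPM in IPCs and below 20 CPM in newborn cells.

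The label was checked against genes that the rule did not use. *Rnd2* (chromosome 11, 101468175 to 101471853, GRCm38) was at 129 and 135 CPM in newborn cells, 165 and 189 CPM in IPCs, 7.65 and 9.85 CPM in later neurons, 12.9 and 6.37 CPM in RGCs and 23.7 and 24.7 CPM in GABAergic cells. Both libraries thus placed newborn cells below IPCs and above the other gates. The log2 fold change was -0.38 ± 0.12 (SE) against IPCs and 3.88 ± 0.17 (SE) against later neurons (adjusted p = 0.0436 and 4.31e-09, quasi-likelihood test of edgeR, adjusted after Benjamini-Hochberg, BH). DESeq2 did not call the difference from IPCs. A *Rnd2* UMI was found in 50.9% and 41.2% of newborn cells. Among cells thinned to 1500 UMIs the share was 17.4% and 19.2%, against 1.14% and 1.06% of later neurons.

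The pallial neuronal factors *Neurod2* and *Neurod6* were at 487 and 473 CPM and 891 and 829 CPM in newborn cells. *Slc17a6*, the vesicular glutamate transporter, was at 165 and 174 CPM, and the migration protein *Dcx* at 727 and 690.3 CPM. All of these were present in both libraries, as the label requires. Presence alone does not set newborn cells apart, since *Neurod6* also defines the later gate and *Dcx* was found in both neighbours. The list of 19 genes known from newborn excitatory neurons that the rule did not use includes *Rnd2*, *Neurod2*, *Neurod6*, *Slc17a6* and *Dcx*. Of the 19, 7 were higher and 9 lower than in IPCs, beside 11.0% and 10.4% of all genes tested. Of 18 that could be tested against later neurons 9 were higher and 1 was lower, beside 9.14% and 10.1% of all genes. The medians were -0.17 and 0.50 on the log2 scale.

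The summed level of the 13 GABAergic genes that no gate uses was 101.1 and 109.95 CPM in newborn cells against 261 and 286 CPM in IPCs and 215 and 219.7 CPM in later neurons. The 14 radial glial genes that no gate uses summed to 738 and 944 CPM, against 3462 and 3790 CPM in IPCs and 1198 and 1641 CPM in later neurons. The summed level was 12.05 and 39.1 CPM for 8 endothelial genes, 18.3 and 15.9 CPM for 8 microglial genes, 10.5 and 60.6 CPM for 9 mural and fibroblast genes and 5.24 and 15.9 CPM for 7 genes of the oligodendrocyte lineage. Globin and other erythroid transcripts (7 genes) differed several-fold between the libraries in newborn cells (1062 and 5401 CPM) and IPCs (559 and 3207 CPM). In later neurons they were closer, at 4128 and 4671 CPM.

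The first comparison asked how newborn cells differ from the IPCs they follow. Higher in newborn cells were 22 of 32 migration and cytoskeleton genes, 21 of 38 adhesion genes and 20 of 31 axon and synapse genes, and lower were 11 of 19 Notch pathway genes, 12 of 15 radial glial genes and 10 of 19 cell cycle genes. Of 14556 genes tested, 3124 were called at an adjusted p-value under 0.05 (21.5% of all genes), 1605 higher (11.0%) and 1519 lower (10.4%) in newborn cells, and the median log2 fold change over all genes was -0.0066. DESeq2 called 2016 genes. Genes used by either gate were left out of the counts, and genes that vary with a gate gene may follow the choice of cells.

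Among the 12 genes with the largest rise, the semaphorin and VEGF co-receptor *Nrp1* (chromosome 8, 128358591 to 128505476, GRCm38) was at 578 and 575 CPM in newborn cells and 102 and 67.1 CPM in IPCs. The log2 fold change was 2.83 ± 0.15 (SE, adjusted p = 3.04e-08, edgeR, BH). *Cntn2*, an adhesion molecule of axons, was at 148 and 161 CPM in newborn cells and 19.2 and 26.4 CPM in IPCs. These surface proteins were low in every IPC sum and several-fold higher in every newborn sum.

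*Bhlhe22*, a bHLH repressor of cortical projection neurons, rose from 27.6 and 47.9 CPM to 249.9 and 244 CPM. *Cdh12*, a cadherin, rose from 29.01 and 33.6 CPM to 255 and 213 CPM. The sodium channel subunit *Scn1a* was at 68.6 and 60.1 CPM against 8.89 and 10.4 CPM. The other rising genes of this set were the glycine receptor subunit *Glra2*, the cation channel *Trpm3*, the docking protein *Dok6*, the lipid-binding protein *Osbpl6*, the matrix protein *Adamtsl3* and the zinc finger protein *Zfp385b*. Their log2 fold changes ran from 2.67 (*Osbpl6*) to 3.66 (*Adamtsl3*). In all 11 genes named so far both newborn sums lay above both IPC sums.

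The remaining gene of the 12, the repulsive ligand *Slit3*, rested on few cells. It was at 126 and 169 CPM in newborn cells and 27.6 and 3.99 CPM in IPCs, with a log2 fold change of 3.33 ± 0.40 (SE, adjusted p = 3.68e-05, edgeR, BH). A *Slit3* UMI was found in 20 and 22 newborn cells, and 10 cells of each library held 93.4% and 92.3% of its UMIs. With 2 of the 3 positive markers required the log2 fold change was 0.78 (adjusted p = 0.512, edgeR, BH). *Trpm3* was also uneven, with 54.0% and 74.1% of its UMIs in 10 cells, and stayed called in that alternative.

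The 12 genes with the largest fall included several known from progenitors. *Neurog2*, the proneural bHLH factor that drives neuronal commitment, was at 9.95 and 19.8 CPM in newborn cells and 467 and 457 CPM in IPCs. It fell by 4.93 ± 0.24 (SE) on the log2 scale (adjusted p = 9.67e-09, edgeR, BH). *Gadd45g*, a growth arrest gene, was at 15.2 and 18.7 CPM against 354 and 284 CPM. Both were thus nearly absent from newborn cells.

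The receptor *Notch1* was at 2.62 and 2.83 CPM in newborn cells and 56.1 and 49.5 CPM in IPCs. The progenitor factor *Sox2* was at 3.67 and 6.80 CPM against 88.9 and 89.1 CPM. *Sox6*, a SoxD factor, was at 36.7 and 38.5 CPM against 604 and 552 CPM. The other falling genes were the motor protein *Myo10*, the matrix genes *Smoc1* and *Thsd4*, the kinase *Dgkb*, *Rhbdl3* and *Btbd17*, with log2 fold changes from -3.89 (*Btbd17*) to -5.04 (*Myo10*). The transporter *Slco1c1* had 1 UMI in each newborn sum against 55.2 and 57.1 CPM in IPCs, so no fold is given for it.

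The second comparison asked how newborn cells differ from later excitatory neurons. Lower in newborn cells were 17 of 31 axon and synapse genes, 18 of 33 receptor and ion transport genes and 19 of 38 adhesion genes, and higher were 7 of 14 zinc finger and SoxC factors and 7 of 9 genes of the IPC list. Of 14555 genes tested 2804 were called (19.3%), 1331 higher (9.14%) and 1473 lower (10.1%) in newborn cells, with a median of -0.027 on the log2 scale over all genes. DESeq2 called 1455. The median share of mitochondrial UMIs was 4.07% and 3.86% in newborn cells and 7.19% and 5.98% in later neurons, and its part in these differences was not tested. This comparison and the first share the newborn sums, so their values are set side by side and no overlap is counted.

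Beside *Rnd2*, the 12 genes highest in newborn cells relative to later neurons included several nuclear factors. The ranking was against later neurons only, and *Rnd2*, *Zbtb20* and *Sema5a* were higher still in IPCs. *Zfhx4*, a zinc finger homeobox factor, was at 286 and 295 CPM against 19.4 and 20.1 CPM, a log2 fold change of 3.87 ± 0.13 (SE, adjusted p = 1.43e-10, edgeR, BH). *Zbtb20*, a zinc finger repressor, was at 957 and 844 CPM against 102 and 107 CPM. The chromatin factor *Prdm16* was at 81.7 and 77.6 CPM against 8.61 and 8.62 CPM. All 3 had newborn sums well above both sums of later neurons.

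*Sema5a*, a membrane semaphorin, was at 201 and 173 CPM in newborn cells and 16.9 and 11.8 CPM in later neurons. The somatostatin receptor *Sstr2* was at 65.0 and 72.5 CPM against 9.88 and 6.33 CPM. *Cdk6*, a cyclin-dependent kinase, was at 52.4 and 50.4 CPM against 1.59 and 3.34 CPM, while *Mki67* and *Top2a* were at 0 in every newborn cell by the rule. The TGF-beta binding protein *Ltbp1*, the potassium channel *Kcnc2*, the E3 ligase *Pdzrn3*, the calmodulin-binding protein *Pcp4* and the Notch coactivator *Maml3* complete the set, with log2 fold changes from 2.85 (*Maml3*) to 5.31 (*Ltbp1*).

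Among the 12 genes lowest in newborn cells relative to later neurons, the dynein intermediate chain *Dync1i1* was at 62.9 and 43.6 CPM in newborn cells and 702 and 600.0 CPM in later neurons. The axonal transport adaptor *Sybu* was at 29.3 and 35.1 CPM against 439.6 and 303 CPM, lower by 3.51 on the log2 scale (adjusted p = 2.63e-08, edgeR, BH). The adhesion protein *Mdga2* was at 59.7 and 76.5 CPM against 756 and 504 CPM. In these 3 genes both later sums lay far above both newborn sums.

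The potassium channel partner *Dpp10*, the glutamate receptor *Grm3*, the centrosomal protein *Nin*, the vesicle protein *Camkv*, and *Rgs6*, *Gucy1a1* and *Egfem1* were lower as well, with log2 fold changes from -4.10 (*Dpp10*) to -3.23 (*Egfem1*). The kainate receptor *Grik3* was at 3.14 and 5.10 CPM against 96.6 and 48.9 CPM. The heparan sulfate enzyme *Hs3st4* was at 34.1 and 10.2 CPM against 460.0 and 228 CPM. Against the later neurons with no UMI of the deep-layer factors *Bcl11b*, *Fezf2* and *Tle4*, 206 and 451 of the 438 and 847 cells, the log2 fold change was 0.21 for *Grik3* and 1.93 for *Hs3st4* (adjusted p = 0.854 and 0.158, edgeR, BH). That gate was chosen after the data had been seen.

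In the contrast of newborn cells with the mean of both neighbours 1148 of 14555 genes were called (7.89%), 763 above (5.24%) and 385 below (2.65%) that mean. The genes named here also lay above, or below, each neighbour in both libraries. *Nrp1* stood at 578 and 575 CPM, above the 102 and 67.1 CPM in IPCs and 204 and 200.0 CPM in later neurons. It was 2.17 ± 0.12 (SE) above the mean of its neighbours on the log2 scale (adjusted p = 7.25e-08, edgeR, BH). The repulsive ligand *Slit2* (chromosome 5, 47981291 to 48307735, GRCm38) stood at 305 and 315 CPM against 116 and 106 CPM and 81.6 and 83.2 CPM. Its excess over the mean was 1.71 ± 0.09 (SE, adjusted p = 3.30e-08, edgeR, BH). A guidance receptor and a guidance ligand thus both had their highest level of the 3 gates in newborn cells.

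*Prex1*, an activator of Rac proteins (chromosome 2, 166566345 to 166713832, GRCm38), stood at 111 and 118 CPM against 37.9 and 39.1 CPM in IPCs and 21.4 and 22.7 CPM in later neurons. *Cux2*, a homeobox factor of upper-layer neurons and their precursors (chromosome 5, 121857962 to 122050415, GRCm38), stood at 278 and 324 CPM against 117 and 117 CPM and 109 and 131 CPM. *Adamtsl3* stood at 55.5 and 89.0 CPM against 6.55 and 5.19 CPM and 18.8 and 15.0 CPM. Of these, *Prex1* and *Cux2* had like values in both libraries and *Adamtsl3* was lower in replicate 1.

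*Ndst3*, an enzyme of heparan sulfate synthesis, peaked at 201 and 182 CPM, with 36.5 and 57.5 CPM in IPCs and 41.8 and 27.6 CPM in later neurons. *Pdzrn3* peaked at 85.4 and 83.3 CPM, with 28.1 and 27.2 CPM and 5.42 and 7.74 CPM. The vesicle priming factor *Cadps*, the scaffold *Wwc1*, the adaptor *Shb*, the RNA-binding protein *Adarb2* and *Zfp385b* complete the 12 peaking genes, at 1.49 (*Cadps*) to 2.42 (*Zfp385b*) above the mean of the neighbours on the log2 scale.

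In other genes newborn cells held the lowest level of the 3 gates. *Kif26b*, a kinesin family member, was at 36.1 and 34.6 CPM against 385 and 397 CPM in IPCs and 223 and 236 CPM in later neurons, -3.06 ± 0.19 (SE) relative to their mean (adjusted p = 2.07e-07, edgeR, BH). *Tox3*, *Shisa9*, *Egfem1*, *Lrrn3*, *Trpc4*, *Adamts18*, *Atp2b2*, *Immp2l*, *Adk* and the Notch coactivator *Maml2* were also below both neighbours, with log2 differences from the mean of the neighbours from -0.90 (*Adk*) to -2.76 (*Egfem1*). *Adk* lost the call in thinned cells (-0.64, adjusted p = 0.258, edgeR, BH). *Maml2* lost it against later neurons without a *Bcl11b*, *Fezf2* or *Tle4* UMI (-0.36, adjusted p = 0.212, edgeR, BH). *Fezf2*, the selector gene of layer 5 subcerebral neurons, was at 24.1 and 25.5 CPM against 56.1 and 48.3 CPM and 54.2 and 52.1 CPM. With the later neurons that lack a *Bcl11b*, *Fezf2* or *Tle4* UMI as the neighbour, which hold no *Fezf2* by their choice, it lay above the mean instead, and in thinned cells it lost the call (-0.97, adjusted p = 0.133, edgeR, BH).

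**Figure D2:**
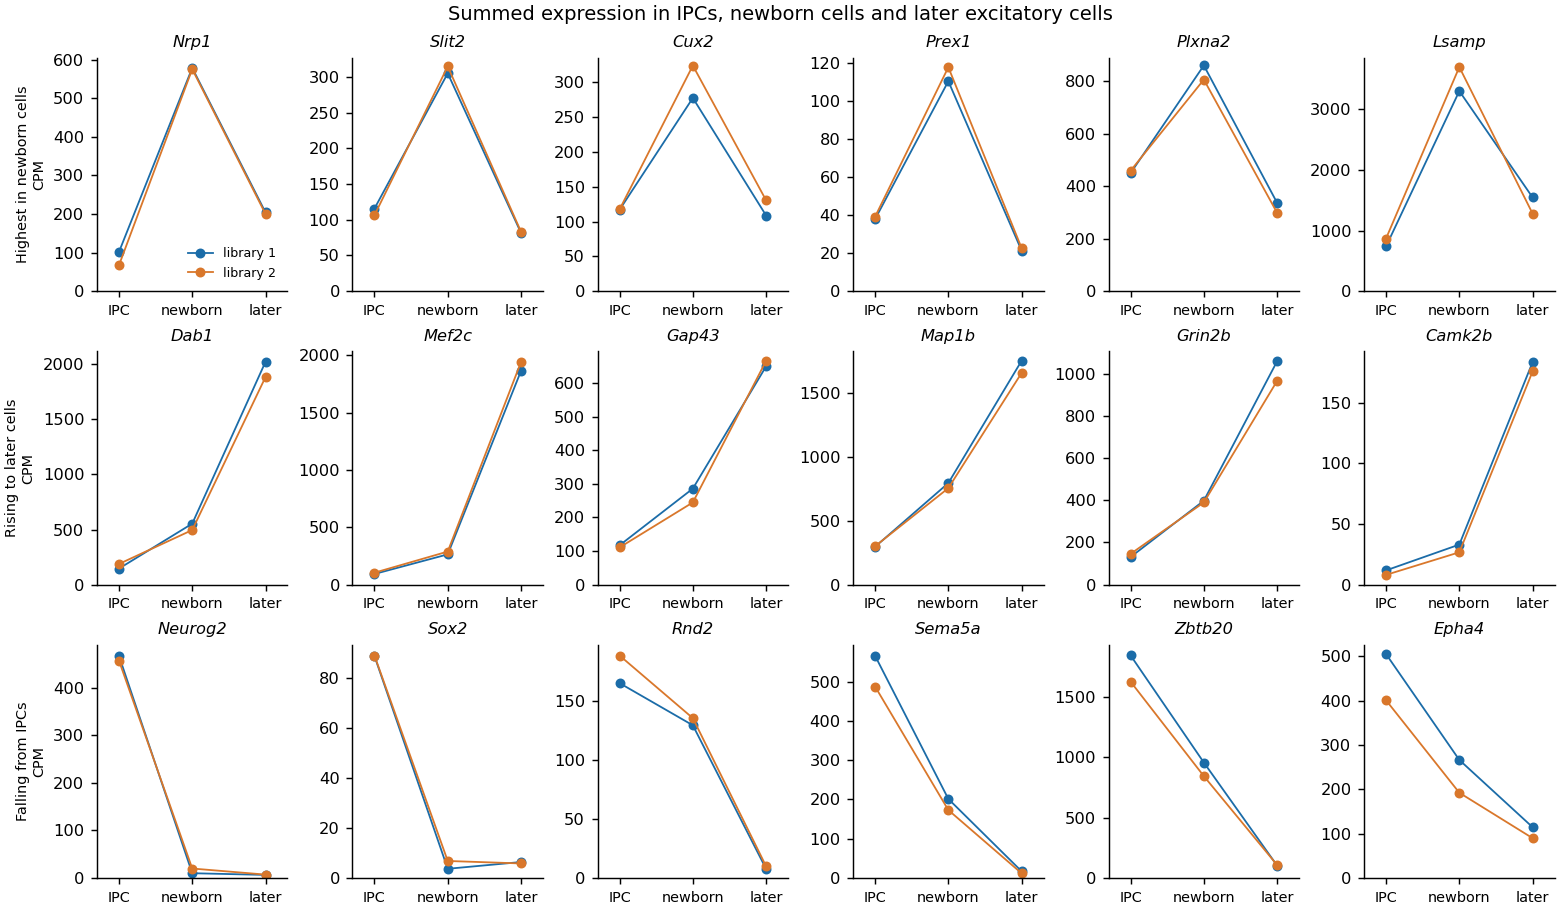
Levels (y axis, CPM of summed UMIs, starting at 0) of 18 genes in IPCs, newborn cells and later excitatory neurons, 1 line per library. The lines join the sums of a library and do not show time. The top row peaks in newborn cells, where *Nrp1* reaches 578 and 575 CPM, the middle row is highest in later neurons, where *Dab1* reaches 2023 and 1885 CPM, and the bottom row is highest in IPCs.

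As *Neurod1*, *Neurog2* and *Nhlh1* bind E-boxes, the promoters of the 12 genes that peaked in newborn cells were searched for the E-box CAGATG on both strands (read as CATCTG on the other), from 250 bases before to 50 bases after each start site. The sequences are from RefSeq for GRCm38.p6, and all 12 genes matched, with 17 promoters. The motif was present in 3 promoters, or 17.6%, against 17.2% of all 32851 promoters. The windows of 30 bases around these matches are shown 5′ to 3′ on the strand of the gene, with the motif in capitals, since they place the candidate letters in the genes described above.
*Ndst3*, chr3:123672441-123672470, minus strand: ttcctgtgagtcCAGATGtgtgatccagat
*Cux2*, chr5:122047887-122047916, minus strand: gggaggggggctCATCTGaatcgatataaa
*Cadps*, chr14:12823030-12823059, minus strand: aggcgccttcttcagcggctgCAGATGgca
The match begins 79 bases before the start site in *Cux2*. In *Ndst3* and *Cadps* it begins 19 and 41 bases after it.

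The factors that order neurogenesis were read from lists of related genes. A gene said to be above or below a gate by a value differed by that log2 fold change. Of 15 tested bHLH factors 5 were higher and 5 lower than in IPCs, and of 14 tested against later neurons 6 were higher and 2 lower, with medians of -0.05 and 0.54 on the log2 scale. Beside *Neurog2*, the progenitor gene *Hes6* fell from 270.4 and 227 CPM in IPCs to 103 and 96.3 CPM. *Neurod4* had 25.7 and 22.0 CPM in IPCs and 1 UMI in all newborn cells. The neuronal members rose, *Neurod2* by 1.50 ± 0.26 (SE) and *Neurod6* by 0.79 ± 0.21 (SE) (adjusted p = 0.000657 and 0.0144, edgeR, BH). The class I partners *Tcf4* and *Tcf12* were above later neurons by 0.62 and 1.38. *Nhlh2* was at 14.7 and 16.4 CPM, above the 3.19 and 2.11 CPM of later neurons by 2.58 ± 0.45 (SE, adjusted p = 0.000984, edgeR, BH), and did not pass the test against the 12.6 and 6.39 CPM of IPCs.

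Among 14 zinc finger and SoxC factors, 5 were higher and 5 lower than in IPCs and 7 higher and 2 lower than in later neurons, with medians of -0.06 and 0.74. *Sox11*, a driver of neuronal gene expression, peaked at 3796 and 3380.2 CPM, against 2221 and 2106 CPM in IPCs and 1773 and 1658 CPM in later neurons. Its log2 fold changes were 0.77 ± 0.15 and 1.06 ± 0.15 (SE) (adjusted p = 0.00192 and 0.000175, edgeR, BH). *Sox4* did not pass either test, at 1534 and 1493 CPM against 1659.7 and 1510.1 and 1249 and 1212 CPM. *Insm1*, which promotes the formation of IPCs, fell from 122 and 99.5 CPM to 89.1 and 73.1 CPM and further to 22.0 and 16.4 CPM in later neurons, and *Zeb1* from 302 and 231 to 82.3 and 82.2 and 15.3 and 11.4 CPM. *Zeb2* took the opposite order, with 305 and 322, 718 and 631 and 1252 and 1075 CPM, and *Myt1l*, a repressor of non-neuronal genes, rose from 416 and 349 to 1689 and 1532 CPM.

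Of the 19 layer factors, 10 were higher and 4 lower than in IPCs, and 8 were higher and 9 lower than in later neurons, with medians of 0.35 and 0.025. *Cux1* (414 and 419 CPM), *Cux2* and *Tbr1* were above both neighbours. *Pou3f2* (471 and 413 CPM) and *Pou3f3* (487 and 495 CPM), POU factors of upper-layer neurons, were above later neurons by 1.53 and 1.03 and did not pass the test against IPCs. *Mef2c*, an activity-linked factor of maturing neurons, was at 264 and 288 CPM against 1864 and 1942 CPM in later neurons, lower by 2.79 ± 0.27 (SE) on the log2 scale (adjusted p = 4.48e-06, edgeR, BH). *Bcl11b*, the factor of subcerebral neurons, was at 228 and 228 CPM, above the 52.9 and 67.1 CPM of IPCs, and differed from later neurons by 0.025 (adjusted p = 0.947, edgeR, BH).

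Genes of migration and the cytoskeleton were mostly higher than in IPCs, with 22 of 32 higher, 3 lower and a median of 0.78, while 6 were higher and 11 lower than in later neurons with a median of -0.30. *Dcx*, a microtubule protein of migrating neurons, was above both neighbours (727 and 690.3 CPM against 484 and 454 and 509 and 478 CPM, by 0.64 ± 0.17 and 0.52 ± 0.16, SE) (adjusted p = 0.0134 and 0.038, edgeR, BH). *Plxna2*, a plexin that binds semaphorins, was above both as well, at 859 and 805 CPM against 449 and 458 and 336 and 298 CPM, and so was *Tagln3*, at 418 and 392 CPM against 284 and 266 and 248 and 241 CPM. *Tubb3* (1197 and 1149 CPM), *Tuba1a* (4444 and 4472 CPM) and *Tubb2b* (3003 and 2730.1 CPM), tubulins of young neurons, were above IPCs by 1.31, 1.23 and 1.23 and did not pass the test against later neurons. *Map1b*, *Mapt*, *Stmn2* and *Rac3* rose from IPCs by 1.42, 1.81, 2.15 and 1.54, and were still below later neurons, with log2 fold changes of -1.14, -1.17, -0.96 and -1.29. *Rnd3*, the paralog of *Rnd2*, fell from 99.7 and 106 to 46.1 and 51.0 CPM and was at 22.0 and 21.6 CPM in later neurons. The genes of nuclear movement *Pafah1b1*, *Ndel1* and *Cdk5* passed neither test, at 310.1 and 298, 39.8 and 32.3 and 37.2 and 40.2 CPM.

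The reelin pathway, which stops radially migrating neurons, was split by its parts. Of 12 tested genes 4 were higher and 1 lower than in IPCs, and 1 was higher and 2 lower than in later neurons, with medians of 0.14 and -0.046. The intracellular adaptor *Dab1* (chromosome 4, 103619500 to 104744844, GRCm38) rose in steps, with 145 and 187 CPM in IPCs, 553 and 495 CPM in newborn cells and 2023 and 1885 CPM in later neurons. Newborn cells were above IPCs by 1.70 ± 0.16 (SE, adjusted p = 3.49e-06, edgeR, BH) and below later neurons by 1.90 ± 0.15 (SE, adjusted p = 8.85e-07, edgeR, BH). The receptors went opposite ways: *Lrp8* fell from 293 and 272 to 184 and 212 CPM and was at 84.5 and 75.6 CPM in later neurons, while *Vldlr* was at 7.02 and 6.39, 18.3 and 17.0 and 43.7 and 47.5 CPM. Of the kinases that phosphorylate the adaptor, *Fyn* rose from 173 and 173 to 267 and 285 CPM, and *Src* was at 18.9 and 22.1 CPM and passed neither test. Levels are not corrected for gene length, so these values compare gates and not genes.

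Of 37 tested guidance receptors and ligands 13 were higher and 5 lower than in IPCs, and 12 were higher and 7 lower than in later neurons, with medians of 0.51 and 0.26. The Slit receptor *Robo2* peaked in newborn cells at 2832 and 2589 CPM, against 1535 and 1499 and 1386 and 1278 CPM, by 0.88 ± 0.19 and 1.03 ± 0.19 (SE) (adjusted p = 0.0032 and 0.00125, edgeR, BH). *Robo1* rose from 155 and 242 to 1264 and 1020.2 CPM and stayed at 1085 and 1029 CPM in later neurons. *Nrp2* (72.8 and 114 CPM) was above both neighbours, by 0.69 and 1.15, and *Plxna4* (1524 and 1457 CPM) above IPCs by 1.71. The netrin receptor *Dcc* fell from 3459 and 2703 CPM to 1882 and 1517 CPM and was at 1193 and 1111 CPM in later neurons. *Flrt2* and *Flrt3*, ligands of *Unc5d*, rose from IPCs by 2.27 and 1.16 and were below later neurons, with log2 fold changes of -1.01 and -1.35. *Cxcl12* was at 29.3 and 45.9 CPM, above the 3.83 and 4.93 CPM of later neurons by 3.16. Its receptor *Cxcr4* was at 1.05 and 1.70 CPM, below the 4.68 and 5.19 CPM of IPCs by 1.79. The *Cxcr4* value rests on few UMIs, since 1 UMI is 0.524 and 0.567 CPM in the newborn sums.

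Of 17 tested ephrins and Eph receptors 7 were higher and 2 lower than in IPCs and 4 higher and 2 lower than in later neurons, with medians of 0.12 and 0.11. The Eph receptors of newborn cells differed in order: *Epha5* peaked at 2574 and 2344 CPM (1125 and 1153 and 1047 and 1010.0 CPM in the neighbours), *Epha4* fell through 505 and 401, 266 and 192 and 114 and 89.7 CPM, and *Ephb1* rose through 39.3 and 34.4, 90.6 and 92.9 and 285 and 182 CPM. Each step of *Epha4* was called, at -0.947 ± 0.11 and 1.16 ± 0.11 (SE) (adjusted p = 1.85e-05 and 4.47e-06, edgeR, BH). *Epha7* (150.4 and 134 CPM) passed neither test. The ligand *Efnb2* rose from 103 and 124 to 227 and 236 CPM and was at 214 and 216 CPM in later neurons, and *Efnb1* fell from 66.4 and 69.1 to 42.4 and 28.9 CPM.

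Adhesion genes held many calls on both sides of the stage: 21 of 38 were higher and 4 lower than in IPCs (median 0.95), and 11 were higher and 19 lower than in later neurons (median -0.57). *Lsamp*, a cell surface protein of the IgLON family, peaked at 3302 and 3698 CPM against 738 and 869 and 1546 and 1279.7 CPM, by 2.16 ± 0.14 and 1.30 ± 0.14 (SE) (adjusted p = 2.04e-07 and 1.28e-05, edgeR, BH). The other IgLON members took other orders, *Negr1* falling through 1018 and 1130.2, 678 and 668 and 142 and 123 CPM, and *Opcml* and *Ntm* rising to 1878 and 1498 and 948 and 1055 CPM in later neurons from 743 and 368 and 371 and 332 CPM in newborn cells. *Cdh4* peaked at 505 and 558 CPM (266 and 236 and 107 and 67.0 CPM), and *Chl1*, an L1-family protein, at 686 and 693 CPM (208 and 231 and 449 and 366 CPM). *Tenm2* and *Tenm3*, teneurins of synaptic partners, were below later neurons, with log2 fold changes of -2.26 and -2.66, at 1293 and 968 and 144 and 139 CPM, whereas *Tenm4* was above them at 1397 and 1289 CPM. *Cdh2*, the cadherin that holds neurons to radial fibres, passed neither test, at 729 and 636 CPM. *Astn1*, a protein of glia-guided migration, was above both neighbours, at 398 and 347 CPM against 288 and 273 and 236 and 207 CPM.

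Of 31 axon and synapse genes 20 were higher and 2 lower than in IPCs, with a median of 0.95, and 3 were higher and 17 lower than in later neurons, with a median of -0.58. *Camk2b* rose through 11.7 and 7.99, 33.0 and 26.6 and 184 and 176 CPM, and *Gap43*, a growth cone protein, through 117 and 111, 286 and 245 and 651 and 667 CPM. *Slc17a6* took the other order, at 165 and 174 CPM against 39.5 and 44.2 CPM in later neurons, higher by 2.01 ± 0.14 (SE, adjusted p = 2.28e-07, edgeR, BH), and so did *Syn2*, at 94.8 and 81.6 against 21.0 and 22.0 CPM. Of 33 receptor and ion transport genes 19 were higher and 2 lower than in IPCs (median 1.51), and 8 were higher and 18 lower than in later neurons (median -0.70). The AMPA receptor subunits *Gria1*, *Gria2* and *Gria3* were above both neighbours, *Gria2* at 1428 and 1427 CPM against 413 and 415 and 1009 and 935 CPM. The NMDA receptor subunit *Grin2b* was at 398 and 389 CPM, above IPCs by 1.55 and below later neurons by 1.36 on the log2 scale. The potassium channels *Kcnq3* (881 and 893 CPM against 173 and 233 and 416 and 307 CPM) and *Kcnd2* (336 and 299.8 CPM against 76.3 and 69.1 and 205 and 207 CPM) peaked in newborn cells. The chloride importer *Slc12a2* (33.0 and 22.7 CPM) passed neither test, and the exporter *Slc12a5* (2.10 and 1.13 CPM) was below later neurons by 1.87 on the log2 scale, on 6 newborn UMIs in all.

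Of 19 tested Notch pathway genes 11 were lower than in IPCs and the other 8 were not called (median -1.41), and 3 were higher and 2 lower than in later neurons (median -0.28). The ligand *Dll1* was at 5.24 and 3.40 CPM against 20.6 and 18.0 CPM in IPCs, and the target *Hes1* at 1.05 and 2.83 CPM against 7.49 and 9.59 CPM. The glycosyltransferase *Mfng* was at 24.6 and 24.9 CPM against 142 and 117 CPM. *Numb*, an inhibitor of Notch, fell too, from 76.7 and 63.5 to 43.0 and 39.1 CPM. Receptor, ligand, target and inhibitor were therefore all lower than in IPCs.

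Of 19 genes of the cell cycle and its exit 10 were lower than in IPCs and 9 were not called (median -0.80), and 6 were higher than in later neurons and 13 not called (median 0.32). *Ccnd2*, cyclin D2, stepped down through 333 and 342 CPM in IPCs, 69.2 and 68.6 CPM in newborn cells and 12.8 and 28.8 CPM in later neurons. *Btg2*, an antiproliferative gene of neurogenic progenitors, stepped down through 135 and 126, 14.7 and 10.2 and 6.06 and 4.75 CPM. The inhibitor *Cdkn1b* was at 178 and 172 CPM, near the 206 and 182 CPM of IPCs. It was above the 76.2 and 74.4 CPM of later neurons by 1.21 ± 0.10 (SE, adjusted p = 1.36e-06, edgeR, BH).

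Of 9 tested genes of the IPC list all were lower than in IPCs (median -2.57) and 7 were higher than in later neurons (median 1.21). Of 15 tested radial glial genes 12 were lower than in IPCs (median -2.10) and 2 lower than in later neurons (median -0.29). The area and hippocampal list had 5 genes higher and 2 lower than IPCs among 18, and 7 higher and 2 lower than later neurons, with medians of -0.21 and 0.35. Within it *Meis2*, a TALE homeobox factor, was at 2507 and 2365 CPM against 623 and 569 CPM in later neurons, and the area factor *Nr2f1* at 303 and 313 CPM against 134 and 139 CPM. *Prox1*, a factor of dentate granule neurons, was at 1.57 and 21.0 CPM, so nearly all of its newborn UMIs were in replicate 2. Of 13 tested genes in each list, 2 GABAergic and 2 striatal genes were lower than in IPCs. Of 13 tested immediate early genes, which respond to dissociation, 2 were higher and 2 lower than in IPCs, and 3 were higher than in later neurons. Over all genes 11.0% were higher and 10.4% lower than in IPCs, and 9.14% higher and 10.1% lower than in later neurons.

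**Figure D3:**
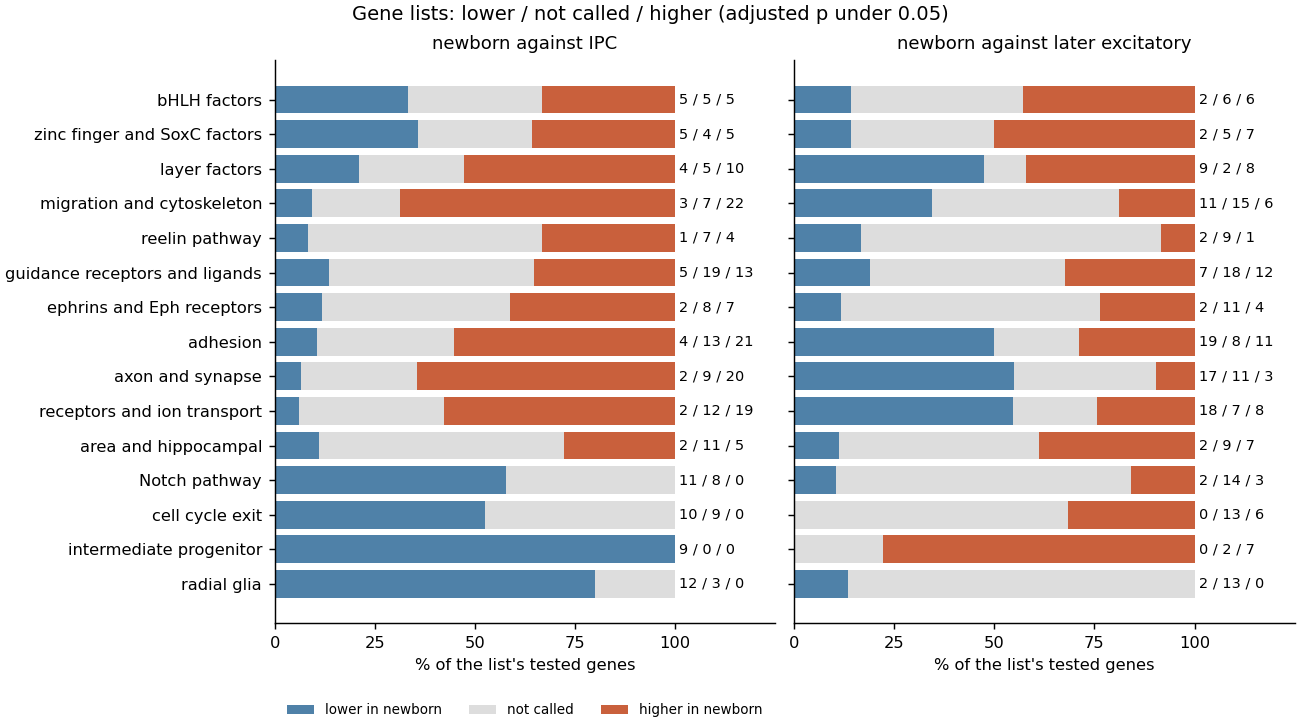
For 15 gene lists, the share of tested genes (x axis, %) that were lower, not called or higher in newborn cells than in IPCs (left) and than in later excitatory neurons (right), at an adjusted p-value under 0.05 (edgeR, BH). The numbers beside the bars are the counts of lower, not called and higher genes. Over all genes, 21.5% were called against IPCs and 19.3% against later neurons.

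The newborn cells were not uniform. *Rnd2*, which the rule did not use, was detected in 111 and 105 cells and not in 107 and 150, or in 50.9% and 41.2% of newborn cells, against 7.87% and 11.6% of cells with microglial or endothelial markers. The parts had like depths, with medians of 8040 and 6575 UMIs with *Rnd2* and 8145 and 6158.5 without. This split, like that on *Bcl11b*, was chosen after results on the same cells had been seen. Of 8883 genes tested 360 were called (4.05%), 148 higher (1.67%) and 212 lower (2.39%) in cells with *Rnd2*. With 4 sums and the library as a block the fit has 1 residual degree of freedom, so its estimate of the spread is largely borrowed across genes. DESeq2 called 58, all of them among the 360, and a split made on cells thinned to 1500 UMIs gave 34, of which 29 were among the 360.

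Cells with *Rnd2* were higher in *Foxp2*, a forkhead factor, with 176 and 196 CPM against 28.4 and 38.7 CPM and a log2 fold change of 2.49 ± 0.18 (SE, adjusted p = 1.78e-08, edgeR, BH). *Pcp4* was at 469.9 and 397 CPM with *Rnd2* and 111 and 171 CPM without. The homeobox factor *Pbx3* was at 135 and 131 CPM against 40.04 and 63.5 CPM. These 3 were also called by DESeq2, and both sums with *Rnd2* lay above both sums without. On thinned cells *Foxp2* and *Pcp4* stayed called and *Pbx3* did not (log2 fold change 0.81, adjusted p = 0.552, edgeR, BH).

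*Sox6* was at 60.4 and 75.4 CPM with *Rnd2* and 12.6 and 10.9 CPM without. *Rnd3*, the paralog of *Rnd2*, was at 71.9 and 84.7 CPM against 20.02 and 25.8 CPM. *Cdk6*, *Ezr*, *Slc30a10*, *Rbms3* and *Ebf1* were higher too, by log2 values from 1.43 (*Cdk6*) to 1.84 (*Slc30a10*). DESeq2 gave no adjusted p-value for these 7, and on thinned cells *Cdk6* was at a log2 fold change of 0.27 (adjusted p = 0.938, edgeR, BH) and the other 6 were too low to be fitted. *Apoe* was not called once doublets were removed (log2 fold change 0.36, adjusted p = 0.723, edgeR, BH), and *Chst9* turned to -0.013 with the split on thinned cells.

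Cells without a *Rnd2* UMI were higher in *Dab1*, with 849 and 721 CPM against 260.5 and 194 CPM in cells with *Rnd2* and a log2 fold change of -1.77 ± 0.10 (SE, adjusted p = 5.88e-10, edgeR, BH). *Arpp21*, an RNA-binding protein of neurons, was at 441 and 432 CPM against 204 and 112 CPM. The secreted protein *Tafa2* was at 510.0 and 534 CPM against 224 and 120.4 CPM. These 3 genes stayed called by DESeq2 and on thinned cells. *Schip1* and *Cdh12* were called by DESeq2 as well and lost the call on thinned cells, where their log2 fold changes were -1.34 and -1.26 (adjusted p = 0.39 and 0.176, edgeR, BH).

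The netrin receptor *Unc5c* was at 96.9 and 77.3 CPM without *Rnd2* and 25.01 and 35.7 CPM with it. *Epha6*, *Tmeff2*, *Tafa1* and *St6galnac5* went the same way, with log2 fold changes from -1.55 (*Tafa1*) to -2.07 (*Epha6*). *Fam184a* was at 89.6 and 14.9 CPM against 10.4 and 14.6 CPM, a difference that replicate 1 shows and replicate 2 does not. *Slit3* was at 235 and 204 CPM against 18.8 and 122 CPM. DESeq2 called none of the 4 of these 7 genes to which it gave an adjusted p-value (0.158 to 1), and on thinned cells *Unc5c*, *Epha6*, *Tmeff2*, *Tafa1* and *Slit3* lost the call, with log2 fold changes from -1.27 (*Unc5c*) to -2.58 (*Epha6*) and adjusted p-values from 0.093 to 0.693 (edgeR, BH).

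Of 35 tested adhesion genes 5 were higher and 11 lower in cells with *Rnd2* (median -0.0038), and of 26 receptor and ion transport genes 6 were lower and 20 not called (median -0.42), beside a median of 0.012 over all genes tested. Of 11 cell cycle genes 4 were higher and 7 not called (median 0.54). Of 9 tested genes of the IPC list 1 was higher and 8 not called (median 0.90), and of 3 tested striatal genes *Foxp2* and *Ebf1* were higher (median 1.57). Of 19 layer factors 4 were higher and 4 lower. Among them *Nfia* was higher by 0.89 and *Mef2c* lower by 1.18 on the log2 scale. Of these lists DESeq2 called 6 adhesion genes, 4 layer factors, 1 receptor or ion transport gene, 1 striatal gene, 0 cell cycle genes and 0 genes of the IPC list.

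**Figure D4:**
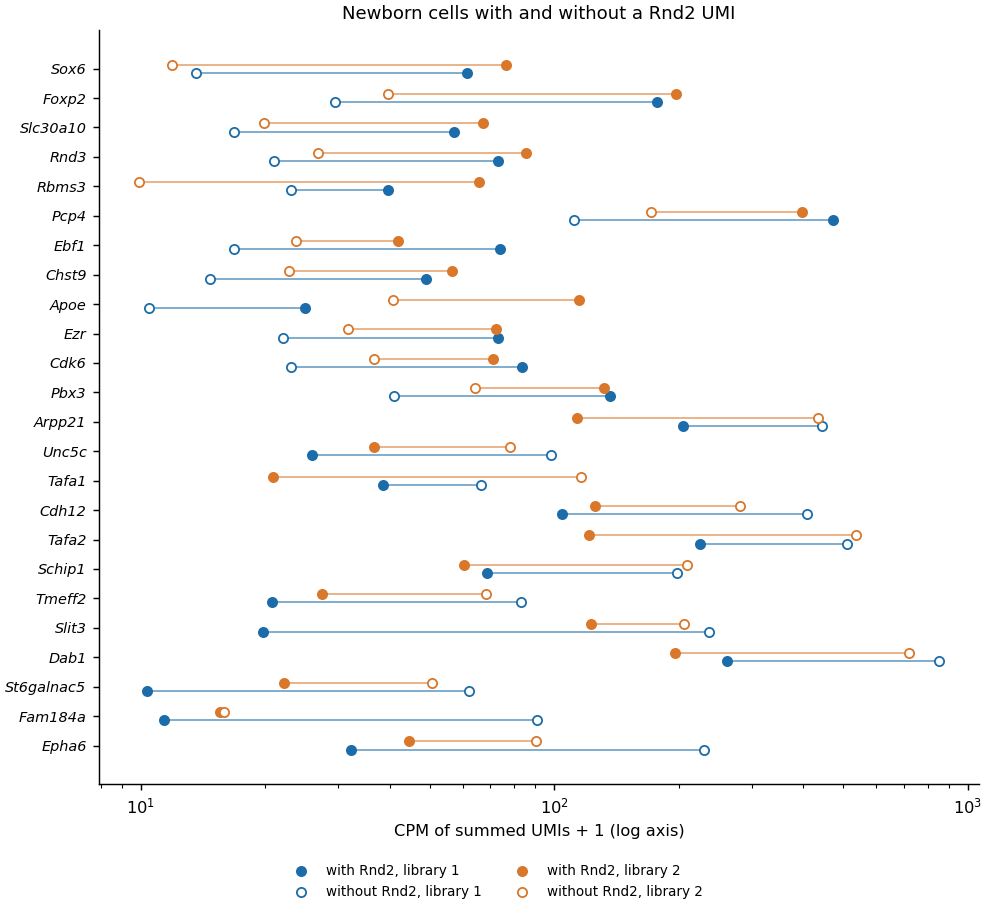
The 12 genes with the largest rise and the 12 with the largest fall in newborn cells with a *Rnd2* UMI, as CPM of summed UMIs plus 1 (log axis) for cells with *Rnd2* (filled) and without (open) in each library. *Dab1* lies at 260 and 194 CPM with *Rnd2* and at 849 and 721 CPM without it.

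A split on the gate's own genes could not be read. Only 2 and 4 newborn cells held *Nhlh1* without *Sema3c*. Against the cells with *Sema3c* and no *Nhlh1* 33 of 8937 genes were called (0.369%), 4 higher (0.0448%) and 29 lower (0.324%), of which DESeq2 called 1.

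The layer factor *Bcl11b*, which the rule did not use, was detected in 142 and 146 newborn cells and not in 76 and 109. Cells with microglial or endothelial markers, which should lack it, held a *Bcl11b* UMI in 20.2% and 23.5% of cases, against 65.1% and 57.3% of newborn cells, so the split sorts cells by a detected UMI and not by expression. The depths were alike, with medians of 8216.5 and 6202.5 UMIs with *Bcl11b* and 7880 and 6535 without. Of 8926 genes tested 96 were called (1.08%), 77 higher (0.863%) and 19 lower (0.213%) in cells with *Bcl11b*, with a median of -0.0063 on the log2 scale over all genes. As in the *Rnd2* split, the fit has 1 residual degree of freedom. DESeq2 called 17, all among the 96, and a split on thinned cells gave 31, of which 18 were among the 96.

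Cells with *Bcl11b* were higher in several cell surface genes. *Islr2*, a membrane protein of growing axons, was at 126 and 135 CPM against 36.6 and 28.5 CPM and its log2 fold change was 1.99 ± 0.21 (SE, adjusted p = 0.000153, edgeR, BH). An *Islr2* UMI was found in 45.1% and 41.8% of the cells with *Bcl11b* and in 15.8% and 11.9% of those without. The contactin *Cntn5* was at 88.2 and 138 CPM against 7.97 and 16.3 CPM, and the receptor *Epha6* at 173 and 106 CPM against 41.4 and 19.0 CPM. Both sums with *Bcl11b* lay above both sums without in these 3 genes, and DESeq2 called each of them.

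The glycosyltransferase *Mgat4c* was at 133 and 87.7 CPM with *Bcl11b* and 17.5 and 23.0 CPM without. *Slit3* was at 184 and 244 CPM against 7.97 and 63.7 CPM, and the adhesion molecule *Ncam2* at 37.5 and 65.3 CPM against 4.78 and 5.42 CPM. *Ncam2* UMIs were found in 14 and 20 newborn cells, and 10 cells held 92.2% and 85.9% of them. *Thsd7a* was higher by 1.86 on the log2 scale and turned to -0.37 with the split on thinned cells. *Pde1a*, *Tafa1*, *Calb2*, *St6galnac5* and *Galntl6* complete the 12, with log2 fold changes from 2.28 (*Galntl6*) to 3.43 (*Pde1a*), and DESeq2 called none of the 5, with adjusted p-values from 0.233 to 1. In each library 10 newborn cells held 100% and 91.3% of the *Pde1a* UMIs and 95.9% and 87.8% of those of *Tafa1*.

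Genes lower in cells with *Bcl11b* were fewer. The upper-layer factor *Cux1* was at 339.6 and 368 CPM against 566 and 491 CPM, a log2 fold change of -0.60 ± 0.12 (SE, adjusted p = 0.0265, edgeR, BH). *Pou3f2* was at 413 and 348 CPM against 589 and 504 CPM. The heparan sulfate enzyme *Hs6st2* was at 324 and 249 CPM against 566 and 427 CPM. Of the 12 genes with the largest fall DESeq2 called *Hs6st2* and the scaffold *Frmd4a*, and on thinned cells *Cux1* and *Frmd4a* stayed called and 8 lost the call, among them *Hs6st2* (adjusted p = 0.742) and *Pou3f2* (adjusted p = 0.859, edgeR, BH). *Cux1* lost the call by DESeq2 (adjusted p = 0.365) and without the replicate block (adjusted p = 0.0583, edgeR, BH). *Pou3f2* lost it by DESeq2 (adjusted p = 0.491), with DESeq2 size factors (adjusted p = 0.0525) and without the block (adjusted p = 0.14, edgeR, BH).

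*Kif26b*, *Tenm3*, *Adamtsl3*, *Foxp2*, *Cited2*, *Clstn2*, *Abracl* and *Frmd4a* were lower as well, by log2 values from -0.47 (*Frmd4a*) to -1.46 (*Kif26b*). *Ptgds*, a prostaglandin synthase, was at 2.34 and 16.6 CPM against 4.78 and 367 CPM. Replicate 2 gave nearly all of its UMIs, 92.0% of them in 10 cells, and it was not called once doublets were removed (log2 fold change -0.69, adjusted p = 0.84, edgeR, BH). The 5 tested erythroid genes were not called, with a median of -1.61 on the log2 scale, and their part in the split was not tested.

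By lists, 5 of 30 tested guidance genes were higher in cells with *Bcl11b* and 25 not called (median 0.15). The netrin receptor *Dcc* was higher by 1.14 on the log2 scale and the neuropilin *Nrp2* by 1.28. Of 15 ephrin and Eph genes 3 were higher and 12 not called (median 0.13), and of 35 adhesion genes 5 were higher and 1 lower (median 0.087). Of 18 tested layer factors 4 were lower and 14 not called (median -0.21). Of 15 area and hippocampal genes 4 were higher and 11 not called (median 0.24). Of these lists DESeq2 called 3 guidance genes, 1 ephrin or Eph gene, 2 adhesion genes, 1 layer factor and 1 area or hippocampal gene. Of the 8 genes on the list of Cajal-Retzius cells, neurons of the marginal zone, *Calb2* and *Reln* were tested, and both were higher (median 2.72), while DESeq2 called 0 of the 2.

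Some of the rising genes belonged to a minority of the members. A UMI of *Slit3*, *Calb2* or *Reln* was found in 29 of 142 and 30 of 146 cells with *Bcl11b* (20.4% and 20.5%) and in 9 of 76 and 6 of 109 without (11.8% and 5.50%). Of the *Calb2* UMIs 92.2% and 95.2% were in 10 newborn cells of each library, and *Reln* UMIs were found in only 8 and 10 newborn cells. *Reln* and *Calb2* are known from Cajal-Retzius cells, but *Trp73*, *Lhx1* and *Lhx5*, which define those cells, had no UMI in any newborn cell, and *Ebf3* was at 1.05 and 1.13 CPM. No cell type name is given to this minority, whose genes were chosen after their values had been seen.

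**Figure D5:**
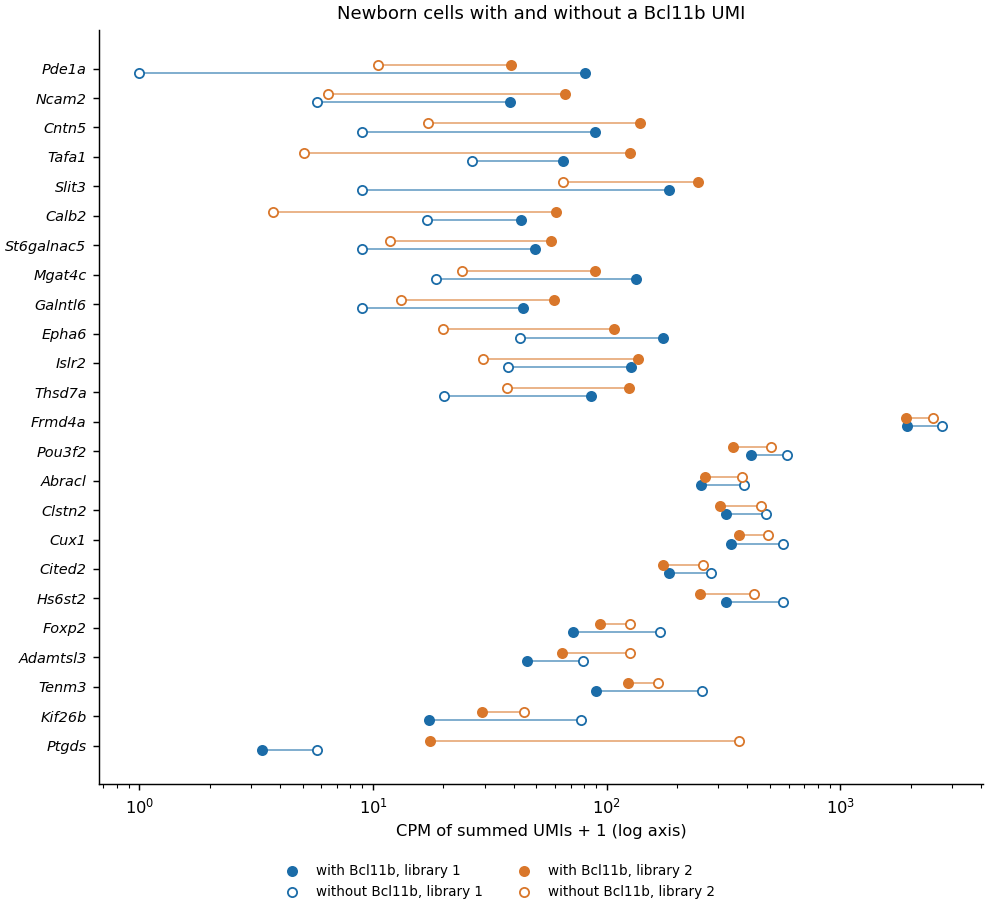
The 12 genes with the largest rise and the 12 with the largest fall in newborn cells with a *Bcl11b* UMI, as CPM of summed UMIs plus 1 (log axis), filled for cells with *Bcl11b* and open for cells without in each library. *Islr2* lies at 126 and 135 CPM with *Bcl11b* and at 36.6 and 28.5 CPM without it, and *Ptgds* differs mainly in replicate 2.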

How the data were processed

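Single-cell 3' libraries were made from 2 WT cortex suspensions. The authors counted reads with Cell Ranger (7.0.0 per the labels, 7.1.0 in the file headers) on mm10, and the deposited values are raw UMI counts per gene and cell, not normalized. The libraries held 46398156 and 64324236 UMIs in 9049 and 13556 barcodes. Cells were gated on counts with Python 3.11.15 and scanpy 1.11.5, and UMIs were summed per gate and library. The 10 sums of 5 gates were fitted with edgeR 4.0.16 in R 4.3.3 (TMM scaling, a minimum of 10 counts in 2 or more sums) with the library as a block, since sums of different gates come from the same library. Splits were fitted on their own 4 sums. Calls were made at a Benjamini-Hochberg adjusted p-value under 0.05, genes of the gates left out. The fits were tested on simulated data, where the share of changed genes recovered varied with the random seed and the share required was lowered after one seed missed it. Doublets were kept.

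In every comparison up to 12 called genes a direction were taken by size of the fold change. They had a mean of at least 50 CPM in the higher gate and the same direction in both libraries. In the *Nhlh1* split *Zfpm2* alone was taken as higher, and the Results describe no single gene of that split. Gate, mitochondrial, ribosomal, globin, sex-linked and unnamed gene models were passed over. In the contrast with both neighbours the smaller difference set the rank. Genes of 26 lists (415 genes) were named beside their counts. The members and lists were chosen with earlier results of these data known. The *Rnd2* and *Bcl11b* splits were chosen after results on the same cells had been seen. Some genes, and an alternative that needs one of them, are not reported here. Alternatives were other gates, doublet removal with Scrublet, thinning, DESeq2 1.42.0, its size factors, no filter, no block and leaving out a library. Promoter sequences were taken from RefSeq.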

Additional observations from a re-analysis of the deposited data

How the results depend on the processing

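DESeq2 called 2016 genes against IPCs, 1455 against later neurons, 622 against the mean of both, 58 in the *Rnd2* split, 17 in the *Bcl11b* split and 1 in the *Nhlh1* split. With gated cells thinned to 1500 UMIs the first 3 counts were 1270, 1504 and 555, and splits on thinned cells gave 34 (*Rnd2*) and 31 (*Bcl11b*). Thinning also remade the sides of a split: the cells with *Rnd2* went from 111 and 105 to 38 and 49, those with *Bcl11b* from 142 and 146 to 65 and 70. At least 3 *Neurod1* UMIs gave 707 genes against the mean of both neighbours. DESeq2 size factors gave 570 in the *Rnd2* split. Without the replicate block the pairing by library was dropped: the *Rnd2* split gave 232 genes, the *Bcl11b* split 59 and the *Nhlh1* split 69, and the other 3 counts (3013, 2591 and 1060) stayed within 1.5 times. Removing doublets gave 53 in the *Nhlh1* split and 152 in the *Bcl11b* split, which held 222 with no filter on low counts. The *Nhlh1* split against *Unc5d* could not be fitted, 1 planned choice of later neurons was not run, and a single library leaves no residual degree of freedom for a count.

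The share of newborn cells was 6.91% with 1 *Neurod1* UMI, 1.57% with 3, 2.24% with 2 of the 3 markers, 0.627% with all cells thinned before gating, and 2.49 to 3.65% with either library left out. Mean shares of newborn cells with a UMI, thinned, were 18.3% (*Rnd2*), 28.6% (*Bcl11b*), 35.8% (*Cux2*) and 22.4% (*Tbr1*), and unthinned 46.0%, 61.2%, 77.6% and 54.9%.

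Of the named genes' refits under the alternatives 1103 kept direction and call, 78 lost the call and 6 turned: *Grik3* (0.21) and *Hs3st4* (1.93) against later neurons without deep-layer factors, an alternative added after the data had been seen, *Fezf2* (4.16, no bound) against the mean of IPCs and those later neurons, which hold no *Fezf2* by their choice, *Thsd7a* (-0.37, *Bcl11b* split, thinned), *Zfpm2* (-8.91, no bound, *Nhlh1* split, doublets removed, which left 1 and 2 cells with *Nhlh1* and no *Sema3c*) and *Chst9* (-0.013, *Rnd2* split, thinned). The cause was not tested.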
